A study of Mus musculus with 20 samples.

Results

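Transgenic mice with extra α-synuclein, of the human wild-type form, that had received saline (ASO-Veh) were set against wild-type mice given saline (WT-Veh). The arrays were chosen by the group named in the sample titles, which gave 10 of the 20 arrays of the series, with 5 mice in each group. Of 41345 rows of the expression table, the 23521 that name exactly 1 gene symbol were compared. The study asked how a neural stem cell (NSC) graft changes striatal gene expression in a mouse model of dementia with Lewy bodies, and measured total RNA on Affymetrix Mouse Gene 2.0 ST arrays, 1 mouse per array. ASO-Veh mice carried the transgene of line D, driven by the PDGF-β promoter, and WT-Veh mice did not. All were on a congenic C57B6/J background, were labelled 12 months old, and had received an intrastriatal injection, so no mouse was without surgery. The grafted groups, ASO-NSC and WT-NSC (5 mice each), received GFP-expressing mouse NSCs instead of saline. They gave a second comparison of the genotypes that shares no array with the first. The tissue was microdissected dorsal striatum, and all ASO mice came from the 1 transgenic line.

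α-Synuclein is a small presynaptic protein that binds synaptic vesicles and is the main component of Lewy bodies. The PDGF-β promoter drives transgenes in neurons. The dorsal striatum is made up mostly of GABAergic spiny projection neurons, which carry either the D1 or the D2 dopamine receptor and receive glutamate from cortex and thalamus and dopamine from the midbrain. Neural activity in these cells switches on immediate early genes, which need no new protein for their induction and many of which are reached by the transcription factor CREB.

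The 10 vehicle arrays were alike in quality. Their median over all rows lay between 6.20 and 6.28 log2 units, and RNA integrity numbers lay between 9.2 and 9.7. Striatal markers were high in every vehicle array, with Penk, the enkephalin precursor of D2 neurons, at 12.48 to 12.77 in ASO-Veh and 12.50 to 12.76 in WT-Veh mice. Ttr, the transthyretin gene of choroid plexus, was at 11.75 to 12.78 in ASO-Veh 46 and 47 and WT-Veh 64 and 67, against 7.74 to 8.35 in the other 6 mice. Xist and the Y-linked genes contradicted the labelled sex of 4 mice (ASO-Veh 45 and 47, WT-Veh 61 and 62), and by these genes 2 ASO-Veh mice and 1 WT-Veh mouse were male. ASO-Veh mice came from litter 1 (42 and 45), litter 3 (46 and 47) and litter 5 (68), and WT-Veh mice from litter 1 (61 and 62) and litter 5 (64, 66 and 67), so only litters 1 and 5 held both genotypes.

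No gene passed the adjusted threshold between ASO-Veh and WT-Veh mice. The test was limma with a coefficient for each of the 4 groups and for labelled sex, over 19 arrays (ASO-NSC 59, which the study left out of its network, was not used), with Benjamini-Hochberg adjustment over 23521 rows. Xist and the Y-linked genes contradicted this label in 4 of the 10 vehicle arrays, so the term did not remove sex. These 4 sex-linked genes had a median difference of 1.42 in this fit and 0.99 without a sex term. With sex taken from the genes themselves it was 0.050. At an unadjusted p under 0.05, 492 rows (2.09%) were higher and 678 rows (2.88%) lower in ASO-Veh mice, together 1170 rows or 4.97%. These shares are the background for the counts of this fit that follow. Counts from other fits have other backgrounds. Over all rows 756 were higher and 928 lower without WT-Veh 67, and 353 were lower with litter as a fixed block. Most other fits are given without their own background, so a list count that moves in them may follow the count over all rows. The values of all 5 ASO-Veh mice lay above those of all 5 WT-Veh mice for 71 rows (0.302%) and below them for 112 rows (0.476%). The median log2 difference (ASO-Veh minus WT-Veh) over all rows was -0.0080, and the median SE was 0.0856. The 95% interval of a difference reached 0.180 log2 units to each side for the median row. The RNA of a whole tissue piece was measured, so fewer cells of a type and less RNA per cell cannot be told apart.

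The genotypes did not separate over the whole profile. The first 3 principal components of the 10 arrays held 27.1%, 15.9% and 12.6% of the variance. ASO-Veh mice averaged 5.98, 9.68 and 2.11 units higher on them, with exact permutation p-values of 0.524, 0.222 and 0.730 (two-sided) and adjusted values of 0.730, 0.667 and 0.730. The 252 splits allow a p of 0.00794 at the smallest. ASO-Veh 47 lay far from the other mice on both of the first components, and WT-Veh 64 and 67 lay together at the opposite end of the second. Pairs of mice of different genotype within a litter correlated at 0.994 on average over 7 pairs, and pairs of the same genotype within a litter at 0.993 over 6 pairs.

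**Figure D1:**
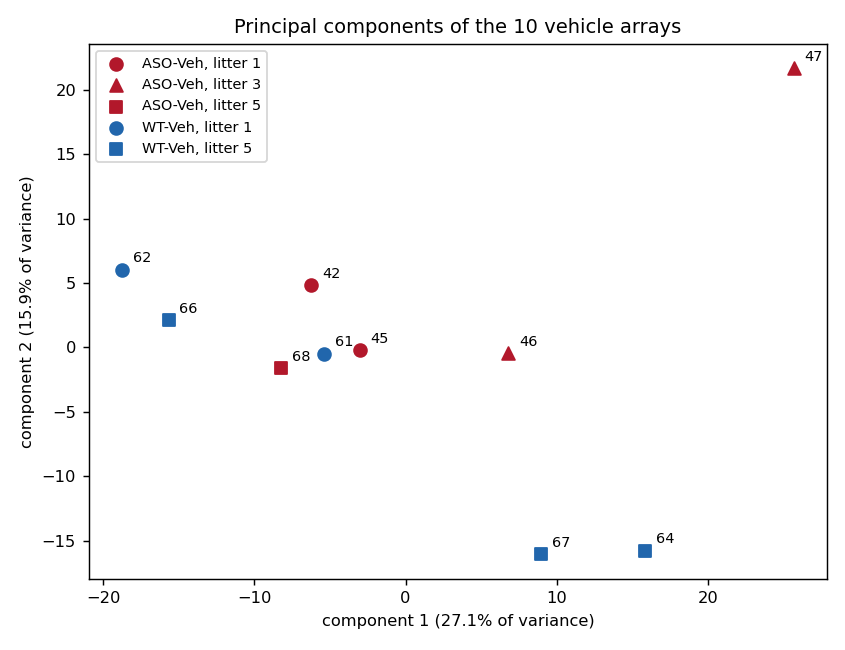
Scores of the 10 vehicle arrays on principal component 1 (x axis, 27.1% of variance) and component 2 (y axis, 15.9%); scores are projections of the centred log2 values. Red marks are ASO-Veh and blue marks WT-Veh mice, the shape gives the litter and the number the mouse. ASO-Veh 47 sits alone at the upper right, and the other ASO-Veh mice lie among the WT-Veh mice.

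The row with the smallest p was Tiparp, a mono-ADP-ribosyltransferase known as a target gene of the aryl hydrocarbon receptor, and it was lower in ASO-Veh mice. Tiparp was at 7.67, 7.89, 7.55, 7.82 and 7.90 log2 units in ASO-Veh mice 42, 45, 46, 47 and 68, against 8.22, 8.44, 8.53, 8.21 and 8.53 in WT-Veh mice 61, 62, 64, 66 and 67. Every ASO-Veh mouse lay below every WT-Veh mouse, and the nearest pair, ASO-Veh 68 and WT-Veh 66, were about as far apart as the highest and lowest mouse of either group. The difference was -0.63 ± 0.0998 (SE, 95% interval -0.83 to -0.42), a level 1.54-fold higher in WT-Veh mice, with an adjusted p of 0.148 in limma. With a trended and robust prior for the variance the adjusted p was 0.0397, and over all alternatives it ranged from 0.0397 to 1.00. Within litter 1 the difference was -0.55 and within litter 5 it was -0.52, and in grafted mice it was -0.48 (ASO-NSC minus WT-NSC, unadjusted p = 0.000254 in limma). A second and dimmer row of Tiparp differed by -0.13 (unadjusted p = 0.0408), and its groups overlapped.

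**Figure D2:**
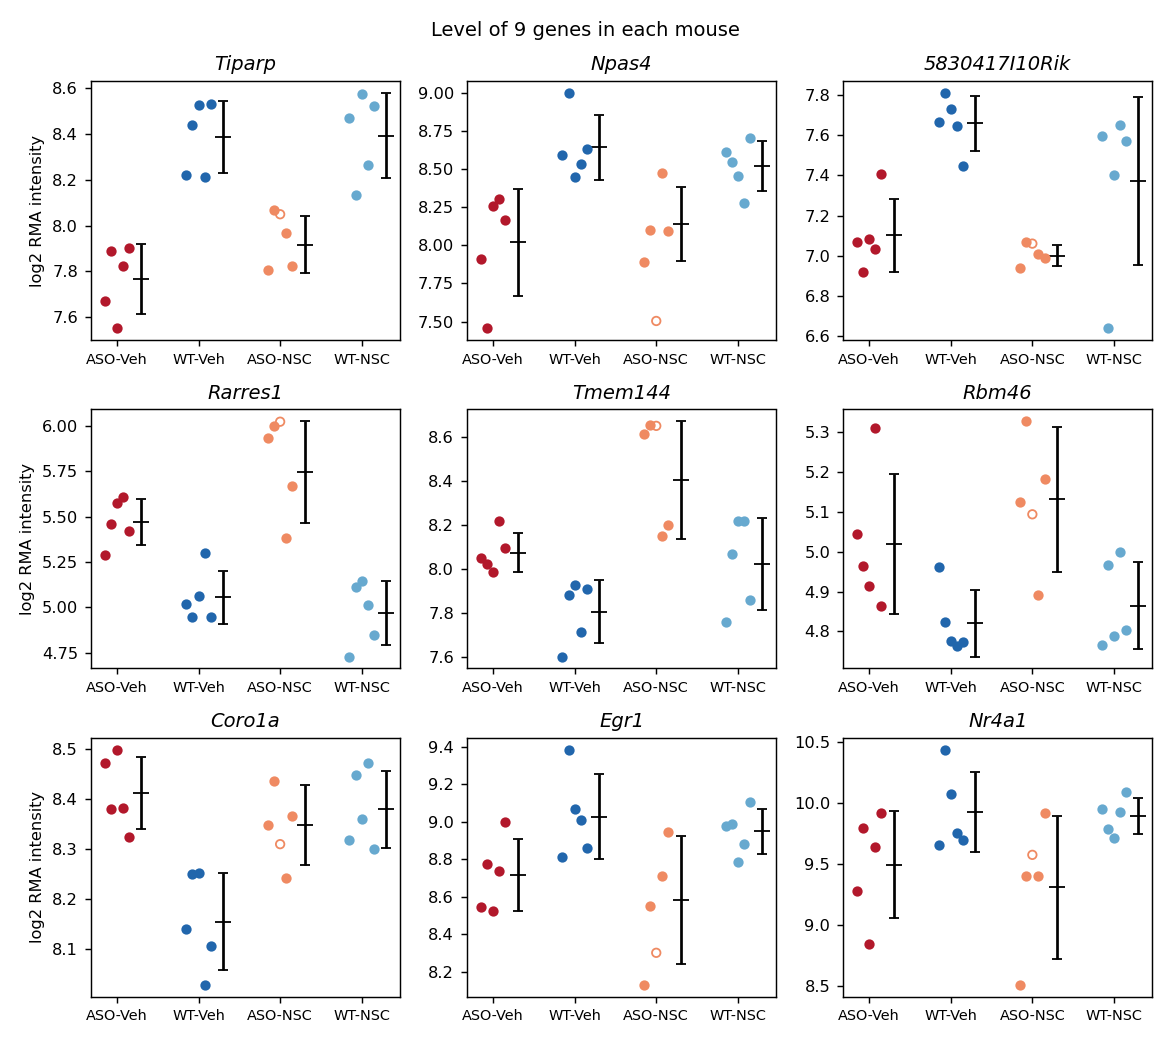
Level (y axis, log2 RMA intensity) of 9 genes in each mouse of the groups ASO-Veh, WT-Veh, ASO-NSC and WT-NSC (x axis); points are mice, bars are mean ± SD over 5 mice (4 in ASO-NSC), and the open circle is ASO-NSC 59, which was left out of its group's mean and of the fit. Tiparp, Npas4, 5830417I10Rik, Tmem144 and Coro1a show no overlap between ASO-Veh and WT-Veh mice, and Coro1a overlaps between the grafted groups.

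Npas4, an activity-dependent transcription factor of neurons, was also lower in ASO-Veh mice without overlap. It was at 7.91, 7.46, 8.26, 8.30 and 8.17 log2 units in ASO-Veh mice, against 8.59, 8.999, 8.45, 8.54 and 8.63 in WT-Veh mice. Among these values ASO-Veh 45 and WT-Veh 62, littermates of litter 1, were the lowest and the highest mouse. The difference was -0.65 ± 0.146 (SE, 95% interval -0.95 to -0.34) with an unadjusted p of 0.000326 and an adjusted p of 0.664 in limma. It was -1.11 within litter 1, -0.37 within litter 5 and -0.37 between ASO-NSC and WT-NSC mice (unadjusted p = 0.0279). Npas4 was the only immediate early gene that was lower at an unadjusted p under 0.05 under every alternative that was run.

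Of 29 immediate early genes measured, 5 were lower at an unadjusted p under 0.05 (17.2%, against 2.88% of all rows) and 1 was higher (3.45%, against 2.09%). The median difference of the 29 was -0.083, and 22 of them were below 0. Those lower were Npas4, Egr1, Arc, Nr4a1 and Nr4a3, and the gene that was higher was Ier3 (0.20). None passed adjustment. The list's call counts moved with single mice. Without WT-Veh 62, without ASO-Veh 46 or with litter as a fixed block only Npas4 stayed lower. Without ASO-Veh 42 there were 2 lower genes, with sex taken from Xist and the Y-linked genes 3, and without WT-Veh 66 there were 9. The list's median lay between -0.126 and -0.032 when single mice were left out.

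Egr1, a zinc finger transcription factor, was at 8.54, 8.77, 8.52, 8.73 and 8.998 log2 units in ASO-Veh mice, against 8.81, 9.38, 9.07, 9.01 and 8.86 in WT-Veh mice. Arc, a synaptic protein made from RNA carried into dendrites, was at 9.55, 9.79, 9.47, 9.61 and 9.92 in ASO-Veh mice, against 9.79, 10.37, 9.92, 9.83 and 9.90 in WT-Veh mice. For both genes WT-Veh 62 was the highest mouse, ASO-Veh 46 the lowest, and ASO-Veh 68 reached the WT-Veh range. The differences were -0.34 ± 0.131 for Egr1 and -0.31 ± 0.122 for Arc (SE), at unadjusted p-values of 0.0191 and 0.0188 in limma, and within litter 5 they were 0.02 and 0.04. The nuclear receptor genes Nr4a1 and Nr4a3 differed by -0.47 and -0.42 (unadjusted p = 0.0477 and 0.0308), with overlapping groups. The classical members Fos (-0.28, unadjusted p = 0.0997) and Junb (-0.24, unadjusted p = 0.0574) did not pass even the unadjusted threshold.

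**Figure D3:**
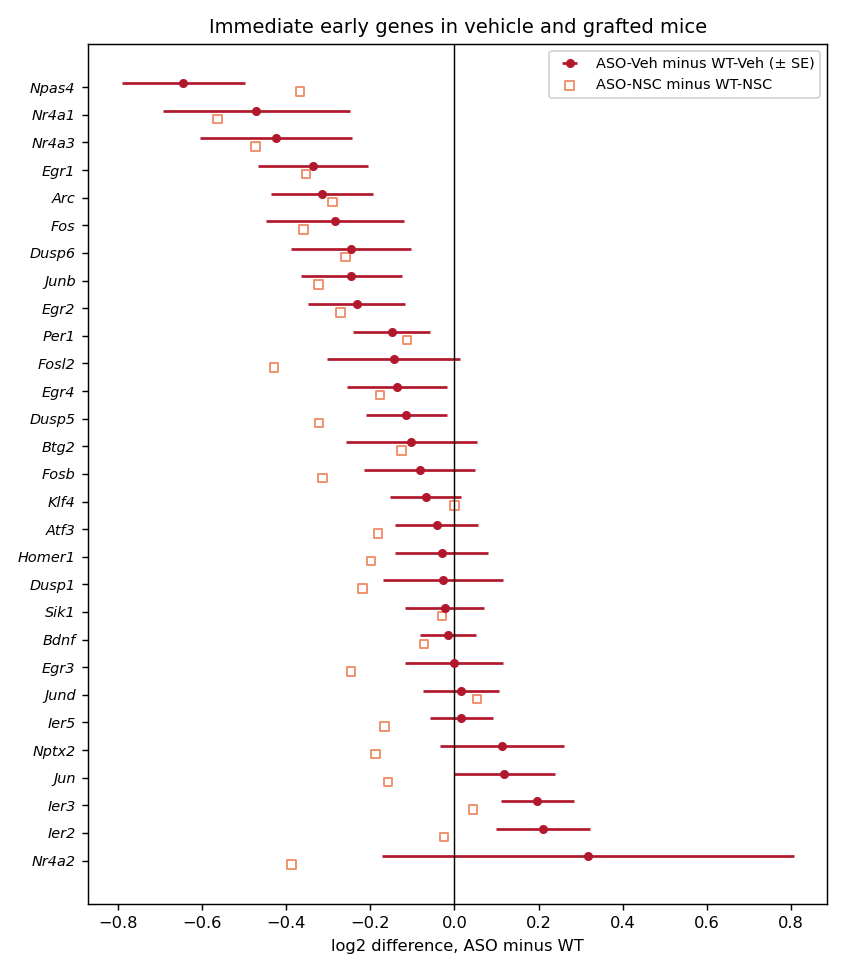
Log2 difference (x axis) of 29 immediate early genes (y axis), for ASO-Veh minus WT-Veh (red points, bars ± SE) and ASO-NSC minus WT-NSC (open squares). Most members lie left of 0 in both comparisons, and Npas4 lies furthest left in the vehicle comparison.

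The same list in the grafted mice, whose arrays are separate but share the estimate of the spread, had 11 of 29 members lower at an unadjusted p under 0.05 (against 1.65% of all rows) and a median of -0.219. Npas4, Egr1, Arc, Nr4a1 and Nr4a3 were lower at that threshold in both comparisons, with grafted differences of -0.37, -0.35, -0.29, -0.56 and -0.47. The vehicle difference minus the grafted difference had unadjusted p-values between 0.208 and 0.930 for these 5 genes, so no difference between the comparisons was detected for them, and none is excluded. Across all rows only 29 (0.123%) passed the unadjusted threshold in the same direction in both comparisons, 12 higher and 17 lower, and 34 (0.145%) passed in opposite directions.

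The promoters of Npas4, Nr4a1 and Nr4a3 are shown because these genes moved together in both comparisons and hold the half-site of the CREB response element. Its presence in them is thus a ground of the choice and not a result. Egr1 and Arc, which also passed in both comparisons, are not shown. Each run covers 250 bases before and 50 bases after the gene's start, from RefSeq on GRCm38.p6, on the strand of the gene, and capitals mark TGACG or its reverse complement CGTCA.
Npas4, chr19:4989922-4990221, minus strand: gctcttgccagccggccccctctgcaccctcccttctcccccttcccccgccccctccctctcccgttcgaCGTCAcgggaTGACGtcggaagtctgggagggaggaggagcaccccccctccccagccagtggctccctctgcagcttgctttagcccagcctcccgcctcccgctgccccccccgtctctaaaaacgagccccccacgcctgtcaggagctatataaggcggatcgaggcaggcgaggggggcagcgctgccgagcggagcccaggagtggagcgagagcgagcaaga
Nr4a1, chr15:101266596-101266895, plus strand: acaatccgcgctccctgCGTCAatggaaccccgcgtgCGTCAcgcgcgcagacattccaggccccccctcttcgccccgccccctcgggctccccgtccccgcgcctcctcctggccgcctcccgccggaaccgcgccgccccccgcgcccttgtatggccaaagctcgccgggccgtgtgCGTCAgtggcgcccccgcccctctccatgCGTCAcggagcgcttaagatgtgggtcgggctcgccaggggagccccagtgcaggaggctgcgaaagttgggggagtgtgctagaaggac
Nr4a3, chr4:48045055-48045354, plus strand: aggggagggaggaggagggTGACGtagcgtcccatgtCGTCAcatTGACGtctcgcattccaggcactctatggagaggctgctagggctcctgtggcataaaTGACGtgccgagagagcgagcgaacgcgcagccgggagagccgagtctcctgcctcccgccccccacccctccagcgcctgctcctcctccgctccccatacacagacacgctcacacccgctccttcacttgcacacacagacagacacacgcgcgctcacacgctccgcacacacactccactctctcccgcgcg
The half-site TGACG, searched on both strands, was present 2 times in the Npas4 promoter, 4 times in that of Nr4a1 and 4 times in that of Nr4a3, and the full element TGACGTCA in none of them. TGACG was found in 20 of the 35 promoters listed for 23 of the immediate early genes (57.1%) and in 20.8% of all 32851 promoters of this length. By gene, 17 of those 23 held it, so it does not single out the genes that passed. TGACGTCA was found in 2 of those 35 promoters and in 1.79% of all. A match describes the letters of the window and says nothing of binding in these mice.

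Tiparp is also 1 of 5 genes on chromosome 3 that passed the unadjusted threshold in the same direction in both genotype comparisons. The others were Rarres1, Tmem144, Rbm46 and 5830417I10Rik. Tiparp and 5830417I10Rik, the outermost of the 5 in gene order on GRCm38.p6, were taken as the ends of a stretch of 157 rows. The stretch was thus chosen after these values were seen and holds all 5 genes by construction. Chromosome 3 holds 4.78% of the rows placed on a chromosome and 5 of the 29 rows shared between the comparisons. In the stretch 18 rows (11.5%) passed the unadjusted threshold after vehicle and 8 (5.10%) in grafted mice, against 47 of 958 rows (4.91%) and 24 rows (2.51%) on the rest of the chromosome. The 5 rows that passed in both comparisons, 1 for each of these genes, count in both shares of the stretch. Without those 5 rows 13 of 152 rows (8.55%) passed after vehicle and 3 (1.97%) in grafted mice. The second row of Tiparp was not 1 of the 5 rows taken out. Over all rows the shares in either direction were 4.97% after vehicle and 3.07% in grafted mice.

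**Figure D4:**
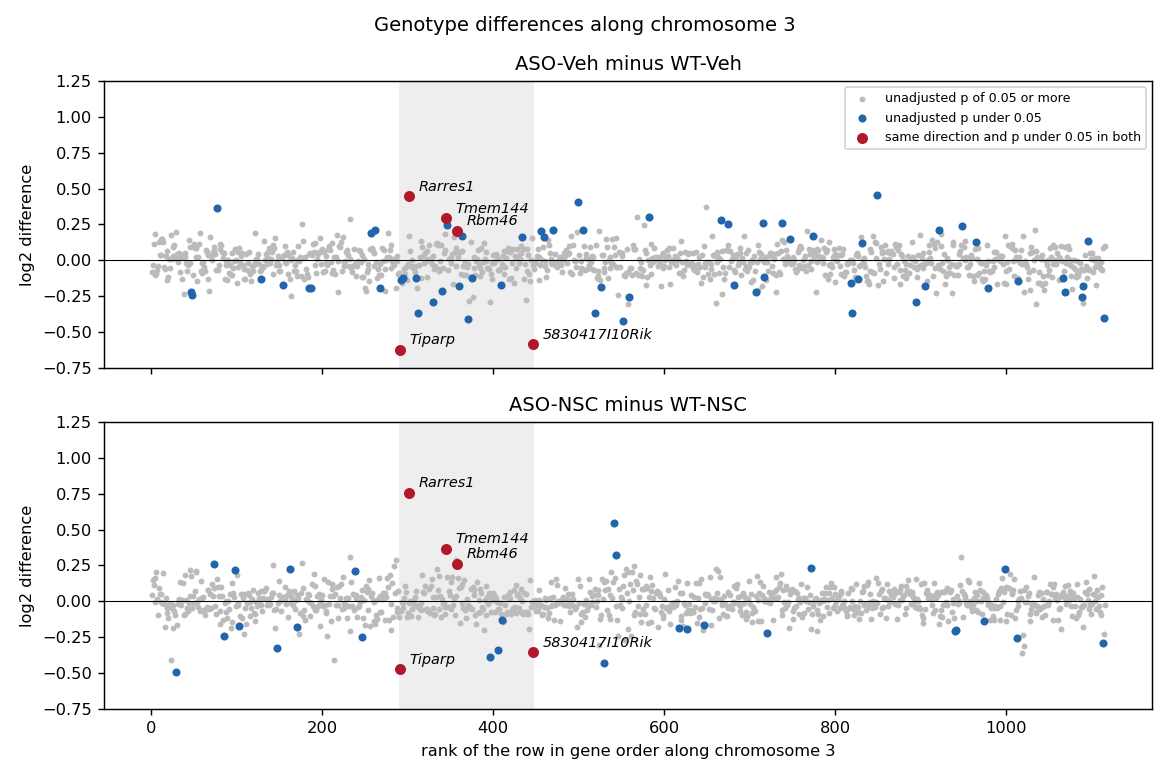
Log2 difference (y axis) of each row on chromosome 3 in gene order (x axis, rank along the chromosome), for ASO-Veh minus WT-Veh (top) and ASO-NSC minus WT-NSC (bottom). Grey shading marks the stretch of 157 rows; the 5 red points, Tiparp, Rarres1, Tmem144, Rbm46 and 5830417I10Rik, passed an unadjusted p under 0.05 in the same direction in both comparisons.

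Rarres1, a gene named for its response to retinoic acid, was at 5.29, 5.46, 5.58, 5.61 and 5.42 log2 units in ASO-Veh mice, against 5.02, 4.95, 5.06, 5.30 and 4.95 in WT-Veh mice. WT-Veh 66 alone reached the ASO-Veh range. The difference was 0.45 ± 0.102 (SE, adjusted p = 0.664 in limma), with 0.39 in litter 1 and 0.32 in litter 5. Between ASO-NSC and WT-NSC mice it was 0.76 with an adjusted p of 0.0306, the one row called there (0.00425%). Rarres1 was thus called in grafted mice and not after vehicle, and the difference between the comparisons had an unadjusted p of 0.0502 and did not pass adjustment.

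5830417I10Rik was at 7.07, 6.92, 7.08, 7.03 and 7.41 log2 units in ASO-Veh mice, against 7.66, 7.81, 7.73, 7.64 and 7.44 in WT-Veh mice. The groups did not overlap, but ASO-Veh 68 and WT-Veh 67, both of litter 5, almost met. The difference was -0.59 ± 0.141 (SE, adjusted p = 0.875 in limma), with -0.74 in litter 1 and -0.20 in litter 5. In grafted mice it was -0.36, where WT-NSC 54 at 6.64 lay below every ASO-NSC mouse and the other 4 WT-NSC mice lay above them.

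Tmem144, a multi-pass membrane protein, was at 7.99 to 8.22 log2 units in ASO-Veh mice, against 7.60 to 7.93 in WT-Veh mice, without overlap. Its difference was 0.29 ± 0.106 (SE, adjusted p = 0.956 in limma), close to the same size within litter 1 (0.29) and litter 5 (0.25), and 0.37 in grafted mice. Rbm46, an RNA-binding protein known from germ cells, differed by 0.21 after vehicle and 0.26 in grafted mice at low levels, with overlapping groups. Among the other rows of the stretch that passed the unadjusted threshold after vehicle were Trim59 (-0.37), Fnip2 (-0.22) and Mnd1 (-0.41), whose grafted differences were -0.11, 0.01 and -0.04.

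Coro1a, an actin-binding coronin of blood-derived and microglial cells, was the gene expressed above 6 log2 units with the smallest p among those higher in ASO-Veh mice. Coro1a was at 8.47, 8.38, 8.50, 8.38 and 8.32 log2 units in ASO-Veh mice, against 8.14, 8.25, 8.25, 8.03 and 8.11 in WT-Veh mice. All ASO-Veh mice lay above all WT-Veh mice, and the difference was 0.27 ± 0.0551 (SE, 95% interval 0.16 to 0.39, adjusted p = 0.612 in limma). It was 0.23 in litter 1 and 0.19 in litter 5. In grafted mice it was -0.04, and the difference between the comparisons had an unadjusted p of 0.00108 and did not pass adjustment. No row of 23521 passed adjustment for that difference, and 867 rows (3.69%) passed it unadjusted.

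Further genes had groups without overlap, and none passed adjustment. Higher in ASO-Veh mice were the cytokine Mif (0.19), the metal-binding metallothionein Mt1 (0.20), the ribosomal protein gene Rpl41 (0.19) and the histone gene H2ac10 (0.25), with grafted differences of -0.01, -0.08, 0.02 and -0.08. A second row of Rpl41 differed by 0.01. Mt1 was at 9.58, 9.64, 9.61, 9.53 and 9.74 log2 units in ASO-Veh mice, against 9.47, 9.50, 9.39, 9.51 and 9.27 in WT-Veh mice, so its groups lay apart by a narrow margin. Lower in ASO-Veh mice were Clk4, a kinase of splicing factors (-0.18), Scn3a, a voltage-gated sodium channel (-0.20), and Vav1, an exchange factor of blood cells (-0.19), though Clk4 and Scn3a differed by -0.02 and -0.05 in grafted mice. N4bp3, a neuronal protein that binds the ligase NEDD4, differed by -0.18 after vehicle and by -0.20 in grafted mice (unadjusted p = 0.00301 and 0.00154 in limma). The transcript 7630403G23Rik was at 5.50 to 5.72 in ASO-Veh mice, against 5.98 to 6.31 in WT-Veh mice. Its difference of -0.54 ± 0.105 (SE) had an adjusted p of 0.490 in limma, which ranged from 0.0533 to 0.9998 over the alternatives. The difference was -0.57 and -0.53 within litters 1 and 5, while the grafted difference was -0.03.

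The synuclein relatives and the genes of the dopamine system showed no difference that passed even the unadjusted threshold. Sncb, the presynaptic β-synuclein, averaged 9.76 ± 0.12 log2 units in ASO-Veh and 9.69 ± 0.08 in WT-Veh mice (SD), a difference of 0.07 with a 95% interval of -0.10 to 0.25. Sncg, γ-synuclein, differed by 0.05 (-0.26 to 0.37), and its sign turned when single mice were left out. Of 14 genes of dopamine synthesis, transport and breakdown none passed the unadjusted threshold, and their median was 0.043. Th, the rate-limiting enzyme of dopamine synthesis, whose RNA is made mainly in the midbrain, differed by -0.14 (-0.44 to 0.16). Of 18 genes in which variants cause or predispose to Parkinson disease, none passed and the differences lay around a median of 0.011.

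Markers of the striatal projection neurons lay close to 0. None of 18 markers shared by all spiny neurons, 9 of D1 neurons, 7 of D2 neurons and 9 of cholinergic interneurons passed the unadjusted threshold, with medians of -0.032, 0.050, -0.032 and -0.024. Of 13 markers of GABAergic interneurons 1 was higher, Sst, the somatostatin gene (0.24). Among 43 genes of synaptic vesicles and release, 2 were higher (4.65%), Cplx1 (0.14) and Napa (0.12), and 1 lower (2.33%), the priming factor gene Unc13c (-0.21). Cplx1, a complexin that binds the assembled SNARE complex, and Napa, which helps to take that complex apart, both had overlapping groups and grafted differences of -0.05 and 0.04.

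Markers of cortical glutamatergic neurons had a median of 0.122 over 15 genes, and 2 were higher at the unadjusted threshold, Lamp5 (0.23) and Rasgrf2 (0.20). Whether striatal neurons lack each of these genes was not tested. Slc17a7, the vesicular glutamate transporter of cortical neurons, was at 9.40, 8.73, 10.003, 9.69 and 10.27 log2 units in ASO-Veh mice, against 7.97, 10.63, 8.86, 7.24 and 9.41 in WT-Veh mice. Its WT-Veh values spread more widely than those of ASO-Veh and spanned them at both ends, with the highest level in WT-Veh 62, the mouse that was also highest for Npas4, Egr1 and Arc. The part of these markers in the differences of the immediate early genes was not tested. For Slc17a7 the difference was -0.24 within litter 1 and 1.76 within litter 5, and it lay between 0.18 and 1.19 when single mice were left out.

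**Figure D5:**
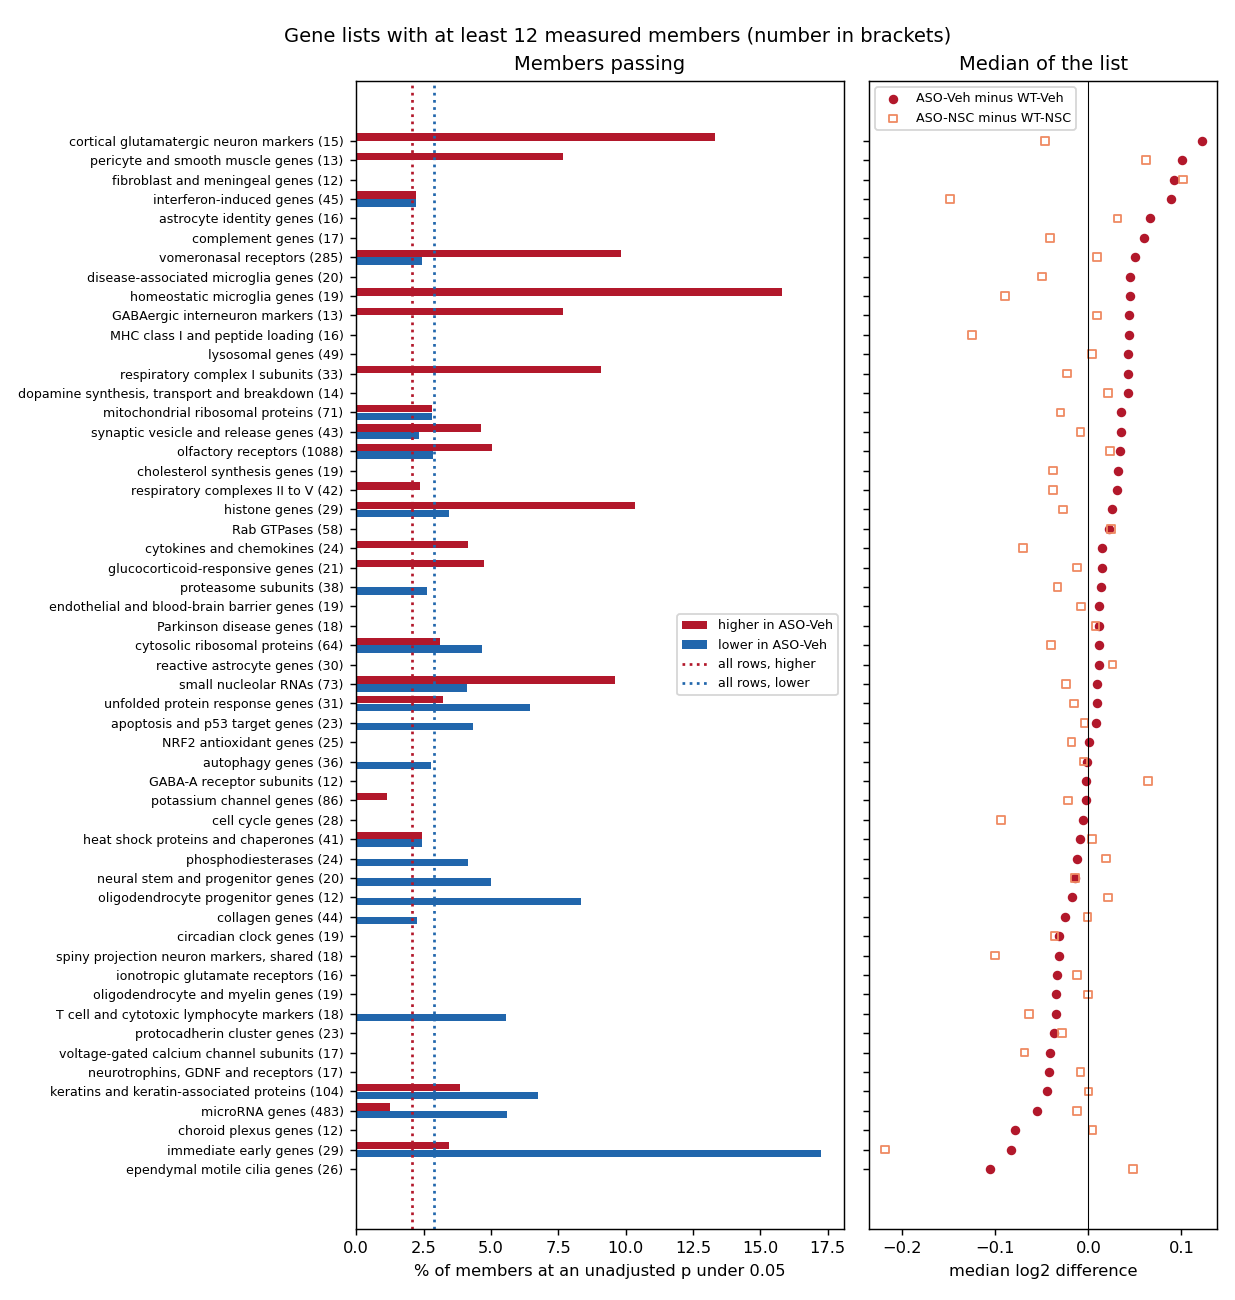
Left, share of the members of each gene list that were higher (red) or lower (blue) in ASO-Veh mice at an unadjusted p under 0.05 (x axis, percent), with dotted lines at the shares over all rows, 2.09% and 2.88%. Right, median log2 difference of each list for ASO-Veh minus WT-Veh (points) and ASO-NSC minus WT-NSC (squares); immediate early genes have the largest share of lower members, and interferon-induced genes lie on opposite sides of 0 in the vehicle and grafted comparisons.

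Among glial lists, homeostatic microglia had 3 of 19 members higher (15.8%, against 2.09%) and a median of 0.045. The 3 were P2ry13, a purinergic receptor (0.19), the secreted protein gene Olfml3 (0.15) and the lysosomal membrane protein gene Laptm5 (0.17), and all had overlapping groups. Fcrls, a receptor found on mouse microglia, pointed the other way at -0.29 (unadjusted p = 0.0646). The count of higher homeostatic members depended on the fit. It fell to 0 on the 10 vehicle arrays alone with labelled sex. Without WT-Veh 61 none was higher and 1 was lower. Leaving out ASO-Veh 42, 46, 47 or 68 left 1 higher member, as did litter as a fixed block. Sex taken from Xist and the Y-linked genes also left 1. Median centring raised the count to 4. This list's median lay between 0.010 and 0.075 when single mice were left out. None of 20 disease-associated microglia genes, 30 reactive astrocyte genes, 17 complement genes, 19 oligodendrocyte and myelin genes and 19 endothelial genes passed, with medians of 0.045, 0.011, 0.059, -0.034 and 0.012. Choroid plexus genes (12) and ependymal cilia genes (26) had medians of -0.079 and -0.106 with no member passing.

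Of 45 interferon-induced genes 1 was higher (2.22%), the guanylate-binding protein gene Gbp6 (0.30), and 1 was lower, Ifit3b (-0.43), and the list's median was 0.089. Within litters 1 and 5, with litter as a block, 10 of the 45 were higher, with a median of 0.143 and a background of 1.74%. The 10 included Oas2 and Usp18, an antiviral synthetase and a protease that removes ISG15. Without ASO-Veh 45 in the 19-array comparison none was higher and the median was 0.016. The MHC class II gene H2-Ab1, which encodes an antigen-presenting chain, was at 6.19, 7.16, 6.43, 6.41 and 6.75 in ASO-Veh mice, against 5.69, 5.90, 6.35, 6.28 and 6.61 in WT-Veh mice. ASO-Veh 45 was the highest mouse and the others overlapped (difference 0.48, unadjusted p = 0.293). The 9 MHC class II genes had a median of 0.135, and 0.132 without ASO-Veh 45. In grafted mice the medians were -0.149 for interferon-induced and -0.173 for MHC class II genes.

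Genes of the mitochondrion and of protein handling moved little. Of 33 complex I subunits 3 were higher (9.09%), Ndufb8 (0.20), Ndufv3 (0.15) and Ndufb9 (0.17), and the list's median was 0.043. Without WT-Veh 67 there were 8 higher and without ASO-Veh 47 there was 1. The count of higher rows over all rows also rose without WT-Veh 67. Of 42 subunits of complexes II to V 1 was higher. None of 49 lysosomal genes passed, and 1 of 36 autophagy genes and 1 of 38 proteasome subunits were lower. Of 31 genes of the unfolded protein response 1 was higher, Sdf2l1 (0.20), and 2 were lower, Creld2 (-0.18) and Atf5 (-0.14). Creld2, an endoplasmic reticulum protein induced by misfolded protein, was at 8.12 to 8.25 log2 units in ASO-Veh mice, against 8.31 to 8.48 in WT-Veh mice, without overlap, and differed by -0.14 in grafted mice. Of 41 heat shock proteins and chaperones 1 was higher, Hspa1a (0.37), and 1 lower, Dnajb6 (-0.11), a co-chaperone that holds back protein aggregation.

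MicroRNA genes leaned to lower values, with 27 of 483 lower (5.59%, against 2.88%) and 6 higher (1.24%) and a median of -0.055. Here too the count moved with single arrays, to 17 lower without ASO-Veh 47 and 46 lower without WT-Veh 67. With litter as a fixed block 12 were lower and 14 higher. The lower count over all rows moved as well, from 678 to 928 without WT-Veh 67 and to 353 with litter as a fixed block. The array probes the precursor gene and not the mature RNA. Those with the largest differences, and Mir301b, whose groups did not overlap, are shown with mature RNAs from RefSeq on GRCm38.p6. For Mir301b only the 5p form is shown. Capitals mark the seed, bases 2 to 8, which pairs with target RNAs. No seed is shared among the mature RNAs shown.
miR-301b-5p: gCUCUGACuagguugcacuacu
miR-3094-5p: uGUUGGGGacauuuuuaaagc
miR-3094-3p: cCUUUAAAuuguguccucaag
miR-3095-3p: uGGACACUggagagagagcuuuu
miR-101c: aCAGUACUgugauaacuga
Mir301b was at 6.09, 6.06, 6.02, 6.02 and 6.14 log2 units in ASO-Veh mice, against 6.24, 6.32, 6.24, 6.18 and 6.26 in WT-Veh mice, a narrow but complete separation. Its difference was -0.18 ± 0.0489 (SE, adjusted p = 0.912 in limma), and -0.03 in grafted mice. Mir3094 was at 4.03, 4.62, 5.07, 4.17 and 5.34 in ASO-Veh mice, against 5.29, 5.40, 5.11, 5.15 and 6.11 in WT-Veh mice. ASO-Veh 68 lay within the WT-Veh range, and the difference was -0.78 after vehicle and 0.12 in grafted mice. Mir3095 differed by -0.59, and Mir101c by 0.93, with its highest value of 7.28 in ASO-Veh 47.

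Among rows at an unadjusted p under 0.05, those with the largest positive differences included vomeronasal receptor genes, pheromone receptors that are expressed in the nose. Of 285 such genes 28 were higher (9.82%, against 2.09%) and 7 lower. Only 13 of them had a mean of at least 6 log2 units, and none of these passed. Over all rows at that level 1.63% were higher and 2.29% lower, so 13 genes are too few to show a lack of calls. Vmn1r94 was at 6.22, 6.04, 5.41, 8.13 and 5.47 in ASO-Veh mice, against 4.98, 4.48, 5.46, 5.23 and 4.33 in WT-Veh mice. ASO-Veh 47 stood above all others, as it did for Vmn1r129 (6.98), Vmn1r103 (7.84) and Vmn1r91 (7.28). Of the 285 genes 23 were higher and 2 lower without ASO-Veh 47, and 7 were higher and 5 lower with litter as a fixed block. Some of these receptors are close in sequence, and whether their probes share signal was not tested. Of 1088 olfactory receptor genes 55 were higher (5.06%) and 31 lower, which became 30 and 39 without WT-Veh 67. Of 73 small nucleolar RNAs 7 were higher (9.59%) and 3 lower (4.11%), which became 24 and 3 without WT-Veh 67 and 0 and 3 without WT-Veh 66.

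Within litters 1 and 5, which hold 3 ASO-Veh and 5 WT-Veh mice, the comparison called no row in limma (smallest adjusted p = 1.00), while 409 rows (1.74%) were higher and 323 (1.37%) lower at an unadjusted p under 0.05. Of the 1170 rows under 0.05 in the comparison of all vehicle mice, 1033 (88.3%) had the same sign in both litters, against 40.5% of all rows. Those 8 mice are part of the larger comparison, so this share is not separate evidence. Tiparp, Npas4, 5830417I10Rik, Rarres1, Tmem144 and Coro1a had the sign of the larger comparison in both litters, whereas Egr1, Arc and Nr4a1 had it only in litter 1.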

How the data were processed

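Total RNA of the dorsal striatum of 20 mice was hybridised to 1 array each. The authors corrected background, normalised and summarised the arrays with RMA in the oligo package and deposited log2 intensity values, which were used as deposited; an array has no read depth, and precision is set by the 5 mice in each group. Group, litter, sex and RNA integrity came from the labels. Of 41345 rows, 16004 had no gene, 1820 named several symbols and 23521 named 1 symbol, for 22180 genes; the table that names them is the array's platform annotation and can be old. A check of the genotype labels against the transgene's own RNA is not reported here.

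Differences between groups were fitted in R 4.3.3 with limma 3.58.1, two-sided, with group and labelled sex, on 19 arrays (14 residual and 4.16 prior degrees of freedom) and Benjamini-Hochberg adjustment over all rows at 0.05. A gene with several rows stood in a list by its most variable row. Lists (62) were described by counts at an unadjusted p under 0.05 and by medians. The list of histone genes was matched again with newer symbols after the files were read. Litters 1 and 5 were fitted with litter as a block. Genes named are the 12 rows per direction with the largest moderated statistic among those with a mean of at least 6 whose groups do not overlap, the 8 largest differences per direction at an unadjusted p under 0.05, the synucleins, up to 4 members of a described list and rows passing in an alternative; further members are named to say what a list is, and Rarres1 and the other chromosome 3 genes were singled out after their values were seen. The members and lists were chosen with earlier results of these data known.

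Promoters, microRNAs and gene order came from RefSeq tables on GRCm38.p6. Components, permutation tests and plots used Python 3.11.15, numpy 2.4.6, pandas 2.3.3, scipy 1.17.1 and matplotlib 3.10.9. The code was checked on simulated data. Alternatives were all 20 arrays, only the vehicle arrays, no sex term, sex from Xist and Y-linked genes, litter as a random or a fixed block, RNA integrity as a term, a trended and robust prior, median centring, rows with a mean of at least 6, 1 row per gene, leaving out arrays whose sex label is contradicted, and leaving out each mouse. Each mouse is a replicate, and only litters 1 and 5 separate litter from genotype.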

Additional observations from a re-analysis of the deposited data

Results flagged for a closer look

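Of 152 sets of 5 mice (76 genes in ASO-Veh and in WT-Veh mice), 9 held 1 mouse far from the other 4, where chance gives about 1 in 20. ASO-Veh 47 was that mouse for 4 genes, at 7.05 log2 units for BC061237 (others 6.19 to 6.42), 9.02 for Scn3a (others 9.14 to 9.18), 7.84 for Vmn1r103 (others 5.70 to 6.14) and 7.28 for Vmn1r91 (others 4.95 to 5.48). ASO-Veh 42 was at 6.503 for Slc6a3, the dopamine transporter gene, with the others at 6.00 to 6.11.

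WT-Veh 62 was at 10.37 for Arc (others 9.79 to 9.92) and at 6.70 for Sncg (others 7.33 to 7.58). WT-Veh 67 was at 9.05 for Rnasek (others 9.43 to 9.58) and at 6.11 for Mir3094 (others 5.11 to 5.40).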

How the results depend on the processing

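Over 26 fits, 73 of 76 named genes kept their sign under every alternative. Many of these genes were chosen for groups without overlap or for large differences in the same arrays. Their kept sign is therefore not separate evidence. With litter as a fixed block Srsy was at -0.19 and Sncb at -0.039. Sncg was at -0.30 without the arrays whose sex label is contradicted and between -0.074 and 0.14 when single mice were left out. Called rows numbered 0 except with the trended and robust prior, where 1 row, Tiparp, was lower (adjusted p = 0.0397 in limma; 0.0397 to 1.00 over all alternatives). Rows lower at an unadjusted p under 0.05 numbered 353 with litter as a fixed block and 323 within litters 1 and 5. Refitted on the rows with a mean of at least 6 alone, 278 were higher and 401 lower, against 241 and 338 of the same rows in the fit on all rows, and 36 higher and 61 lower rows had groups that did not overlap, since fewer rows were tested. On those rows component 2 differed by -1.81 (adjusted p = 0.754, exact permutation test). A component's sign is arbitrary, and this one was hardly the same axis as component 2 of all rows, so no reversal is read from it. Leaving out single mice gave 424 to 756 rows higher and 509 to 928 lower, with both of the upper counts without WT-Veh 67, and the cause was not tested. Centring each array on its median gave 565 higher and 527 lower, 51.7% higher against 42.1% as deposited. For 17 lists, 221 medians from 13 settings each, leaving out single mice among them, stayed within the spread between mice. Those settings did not include litter as a fixed block or the fit without arrays whose sex label is contradicted. With litter as a fixed block the interferon-induced median was 0.189, against 0.089. Without the contradicted arrays the median of the 2 synucleins was -0.118, against 0.063. Both moves were larger than the pooled SD of the list mean between mice (0.096 and 0.162). The histone median also moved beyond its pooled SD of 0.079 with litter as a fixed block, to 0.165 from 0.026.

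No paired analysis was possible because the mouse numbers in the labels are unique to each mouse and no number is shared between groups; litter was the block instead, with the values given above. Limits are 5 mice per group, litter 3 being only ASO-Veh among the vehicle mice, sex labels contradicted in 4 of 10 arrays, and Ttr, a choroid plexus gene, high in 2 mice of each genotype. Rows with low values, such as the receptor genes, lie near the array's background.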
